A study of Mus musculus with 40 samples.

Results

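Glycolytic enzymes were followed in the duodenum of mice exposed for 28 days to hexavalent chromium, Cr(VI), or to the fungicides captan or folpet. The genes were looked up by symbol: ALDOA, TPI1 and PFKL in the panel's capitals, written Aldoa, Tpi1 and Pfkl below, together with Hk1, Hk2, Gpi1, Pfkp, Pgk1, Pgam1, Eno1 and Ldha wherever the targeted panel had a row for them. This gave 7 probes for 6 genes, Hk1, Pfkl, Pfkp, Aldoa, Tpi1 and Pgam1, of 3045 probes for 2756 symbols in the panel. Tpi1 had 2 probes and each other gene had 1. No row carried the symbol of Hk2, Gpi1, Pgk1, Eno1 or Ldha, so these genes could not be analysed. Of the 7 probes, 6 passed the filter on low counts; the second Tpi1 probe did not, with 0 counts in 39 of the 40 libraries.

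Glycolysis splits glucose into pyruvate in the cytosol. Hexokinase traps glucose as glucose 6-phosphate, phosphofructokinase commits the sugar to the pathway, aldolase cuts it into triose phosphates, triosephosphate isomerase interconverts them, and phosphoglycerate mutase acts on the lower arm before pyruvate is formed. In the small intestine the absorptive enterocytes use the same enzymes on sugar taken up from the gut, and several of the genes are known targets of the hypoxia-inducible factor HIF-1.

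All mice were male, wildtype B6C3F1, a hybrid strain. The exposed groups had 7 libraries each: Cr(VI) at 180 ppm in drinking water, captan at 6000 or 12000 ppm in the diet, and folpet at 6000 or 16000 ppm in the diet. The control group had 5 libraries. RNA came from formalin-fixed, paraffin-embedded tissue and was measured with TempO-Seq, in which pairs of probes are ligated on their target RNA, amplified and counted. Nothing in the labels ties libraries to separate mice, so the p-values speak of variation among these libraries only, and part of it may be technical. The age of the mice is not stated in the labels.

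Total counts ran from 1763440 to 7904819 per library. The 5 enterocyte markers that the panel holds, of 18 looked for, were above 0 in every library. Markers of the pancreatic acinar cell, a cell of the neighbouring gland (15 of 30 in the panel), took 2.69% to 73.4% of counts in Cr(VI) libraries, at most 45.8% in any fungicide library and 17.0% to 67.6% in control libraries. They exceeded 50% in 3 Cr(VI) and 2 control libraries. In the skeletal or cardiac muscle list (7 of 8 in the panel) Acta1 and Ckm were above 0 in every library and Eno3 was at 0 in 1, while Tnnt3, Pgam2, Myh2 and Myh1 were at 0 in 26, 34, 38 and 39 libraries. These markers together took at most 0.0428% of counts in any exposed library and at most 0.0418% in any control library. Of 3 red cell markers, Alas2 was at 0 in 7 libraries and the haemoglobin genes Hbb-bs and Hba-a1 in 34 and 39. Control replicate 5 was shallow, with 2121824 counts and 1460 probes above 0, and 67.6% of its counts were acinar. Captan 6000 ppm replicate 2 had the fewest counts, 1763440, with 2145 probes above 0. Levels below are CPM, counts brought to a common library size after TMM scaling. Probes differ in efficiency, so levels are compared across groups and never between genes.

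The deposited counts carry no probe positions, so gene positions are those of RefSeq on GRCm38.p6. Aldoa lies on chromosome 7 (126795234 to 126800994), Tpi1 on chromosome 6 (124810586 to 124814158), and Pfkl on chromosome 10 (77986947 to 78009807). Their promoters are shown because these are the 3 genes that rose. Each sequence holds the 250 bases before a listed start, read 5′ to 3′ on the gene's own strand, which is the minus strand for all 3. Capitals mark the letters ACGTG or GCGTG on either strand, the core of the HIF-1 response element. For Aldoa, which has 3 listed starts, the most downstream is shown (chr7:126799179-126799428). Pfkl is chr10:78009808-78010057 and Tpi1 is chr6:124814159-124814408.
Aldoa: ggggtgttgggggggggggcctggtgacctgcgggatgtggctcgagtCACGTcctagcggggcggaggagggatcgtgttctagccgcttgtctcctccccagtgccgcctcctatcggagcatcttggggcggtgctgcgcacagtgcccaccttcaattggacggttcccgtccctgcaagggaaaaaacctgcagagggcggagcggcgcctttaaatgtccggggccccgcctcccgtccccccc
Pfkl: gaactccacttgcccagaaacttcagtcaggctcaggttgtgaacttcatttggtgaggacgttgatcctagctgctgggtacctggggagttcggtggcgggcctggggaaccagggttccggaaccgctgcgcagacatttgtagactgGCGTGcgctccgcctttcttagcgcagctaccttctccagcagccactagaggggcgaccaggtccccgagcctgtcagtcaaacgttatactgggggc
Tpi1: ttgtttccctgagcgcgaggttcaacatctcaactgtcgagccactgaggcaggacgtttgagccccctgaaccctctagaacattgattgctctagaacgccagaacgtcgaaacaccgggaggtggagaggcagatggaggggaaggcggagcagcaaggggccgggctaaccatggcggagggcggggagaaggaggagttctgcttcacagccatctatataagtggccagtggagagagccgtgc
The Aldoa window held 1 match to ACGTG, on its reverse strand, 198 to 202 bases before the start. The same site lies in the window of another of its 3 listed starts, and the window of the remaining, most upstream start held no match to either motif. The Pfkl window held 1 match to GCGTG, 95 to 99 bases before the start, and the Tpi1 window held neither. Among the genes that did not pass, Pgam1 had 1 ACGTG and 2 GCGTG matches, Pfkp had 3 GCGTG matches, and Hk1 had 3 GCGTG matches at 1 of its 2 listed starts. Such matches are common: of 32851 listed promoters of this length, 16.6% held ACGTG, 28.2% held GCGTG and 38.6% held either.

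Aldoa was higher than control in all 5 exposed groups, Tpi1 in the 4 fungicide groups, and Pfkl in the Cr(VI), captan 12000 ppm and folpet 16000 ppm groups. Hk1, Pfkp and Pgam1 passed in none of these comparisons, and no member was called lower, where 2.99%, 1.38%, 1.53%, 1.61% and 4.68% of tested probes were called lower with Cr(VI), captan 6000 and 12000 ppm and folpet 6000 and 16000 ppm. All 5 comparisons share the same control libraries. A probe passed at a Benjamini-Hochberg adjusted p under 0.05 in edgeR's quasi-likelihood test. Of the 6 tested members, 2 rose with Cr(VI), where 2.95% of the 2541 tested probes were called higher. With captan, 2 of 6 rose at 6000 ppm (3.78% of all tested probes) and 3 of 6 at 12000 ppm (4.64%). With folpet, 2 of 6 rose at 6000 ppm (4.6%) and 3 of 6 at 16000 ppm (7.91%). The median log2 fold change of the 6 members was 0.30 with Cr(VI), 0.56 and 0.44 with captan at 6000 and 12000 ppm, and 0.41 and 0.82 with folpet at 6000 and 16000 ppm. The same median over all tested probes lay between -0.05 and 0.01. TMM scaling tends to hold that median near 0, and with library totals alone it ran from -0.30 to 0.44. The members were chosen with earlier results of these data known. Their counts and medians beside those of all probes are therefore descriptions and no test of enrichment.

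**Figure D1:**
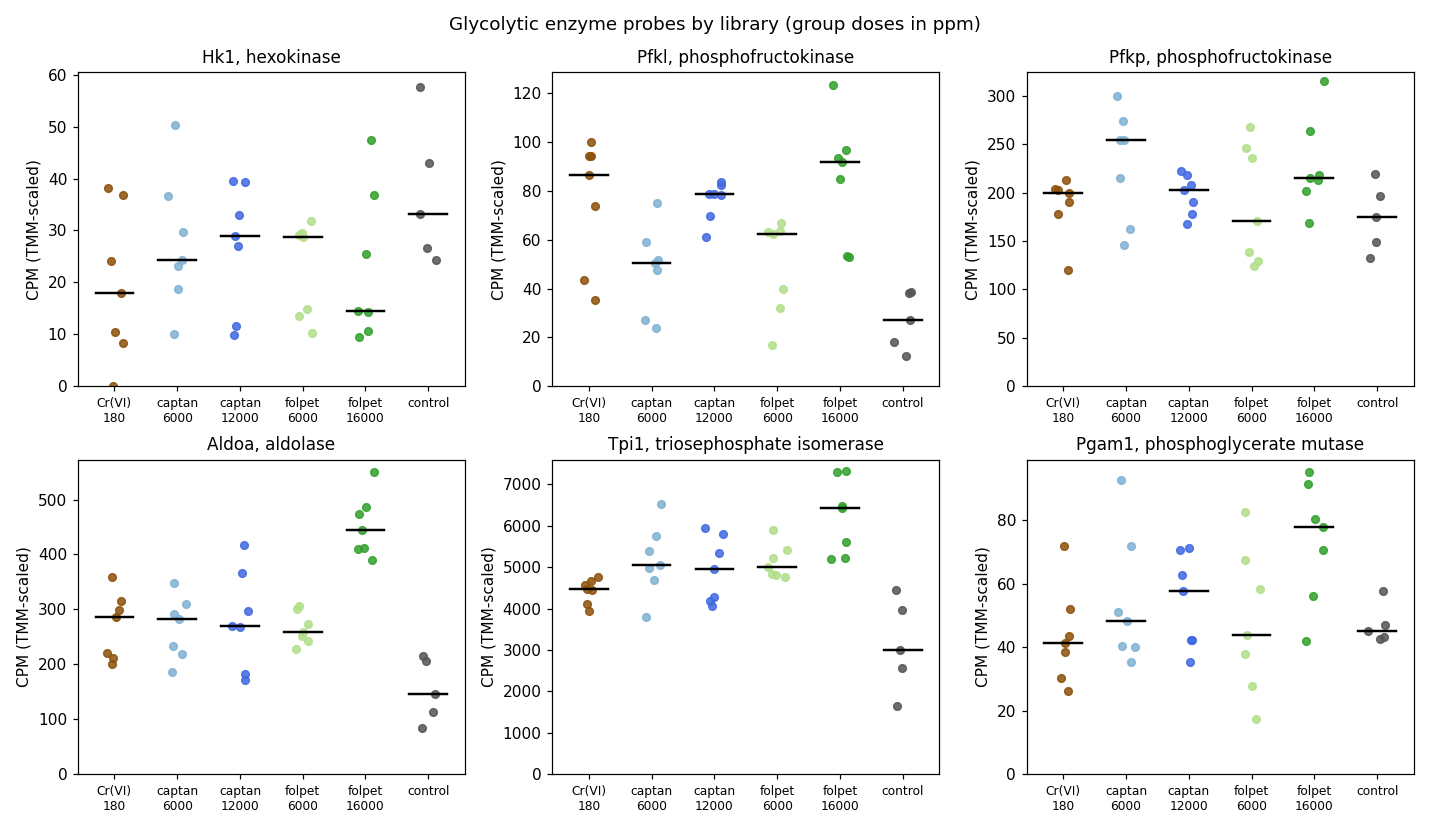
Level of each tested glycolytic enzyme probe in CPM (vertical axis from 0) for every library, by group with doses in ppm; points are libraries and bars are group medians. Aldoa lies at 390 CPM or more in every folpet 16000 ppm library, against at most 214 CPM in control libraries, whereas the Hk1, Pfkp and Pgam1 points of the exposed and control groups overlap.

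Hk1 encodes hexokinase 1, which phosphorylates glucose at the entry to the pathway. Its level ran from 0 to 38.3 CPM in Cr(VI) libraries (median 18.0), from 10.1 to 50.3 with captan at 6000 ppm (median 24.4) and from 9.90 to 39.5 at 12000 ppm (median 28.9). With folpet it ran from 10.2 to 31.8 CPM at 6000 ppm (median 28.7) and from 9.52 to 47.4 at 16000 ppm (median 14.5), and the 5 control libraries had 24.3, 33.2, 43.0, 26.7 and 57.6 CPM. Every exposed group overlapped control. The log2 fold changes lay between -0.93 with Cr(VI) and -0.42 with captan at 6000 ppm, each with an SE of 0.57 or 0.58. None passed, the lowest adjusted p being 0.399, for Cr(VI).

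Pfkl encodes the liver-type subunit of phosphofructokinase, the enzyme of the committed step. Cr(VI) libraries ran from 35.3 to 99.8 CPM (median 86.7), captan libraries from 23.9 to 75.0 at 6000 ppm (median 50.5) and from 61.2 to 83.8 at 12000 ppm (median 78.7). Folpet libraries ran from 16.9 to 66.8 CPM at 6000 ppm (median 62.2) and from 52.8 to 123 at 16000 ppm (median 91.8). The control libraries had 18.3, 12.4, 38.5, 38.3 and 27.0 CPM. All captan 12000 ppm and all folpet 16000 ppm libraries lay above the highest control, as did 6 of 7 Cr(VI) libraries, and the lower doses of both fungicides overlapped control with 5 of 7 libraries above it. Of all tested probes, 1.65% lay wholly above control in the captan 12000 ppm group and 4.25% in the folpet 16000 ppm group. Pfkl rose by 1.49 ± 0.34 on the log2 scale with Cr(VI) (SE, adjusted p = 0.00345), by 1.50 ± 0.34 with captan at 12000 ppm (adjusted p = 0.00289) and by 1.66 ± 0.34 with folpet at 16000 ppm (adjusted p = 0.00044). At 6000 ppm the log2 fold change was 0.83 ± 0.33 with captan (adjusted p = 0.137) and 0.87 ± 0.33 with folpet (adjusted p = 0.117), and neither passed. The Cr(VI) call was narrowly lost with limma-voom (adjusted p = 0.0508).

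Pfkp encodes the platelet-type subunit of the same enzyme. Its group means lay close together, at 187 ± 31.5 CPM with Cr(VI), 229 ± 57.3 and 198 ± 20.4 with captan at 6000 and 12000 ppm, 187 ± 60.9 and 228 ± 47.6 with folpet at 6000 and 16000 ppm, and 175 ± 35.1 in control (SD, n = 7 each, 5 for control). The control libraries had 132, 220, 175, 197 and 150 CPM, and every exposed group overlapped them. The log2 fold changes ran from 0.10 ± 0.20 with Cr(VI) to 0.39 ± 0.20 with captan at 6000 ppm, and the lowest adjusted p was 0.217, with folpet at 16000 ppm.

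Aldoa encodes aldolase A, which cleaves fructose 1,6-bisphosphate. Cr(VI) libraries ran from 201 to 359 CPM (median 286), captan libraries from 185 to 349 at 6000 ppm (median 282) and from 172 to 417 at 12000 ppm (median 269). Folpet libraries ran from 229 to 306 CPM at 6000 ppm (median 259) and from 390 to 549 at 16000 ppm (median 444), against 113, 83.1, 207, 214 and 145 CPM in the control libraries. Both folpet groups lay wholly above control, as 2.99% of tested probes did at 6000 ppm and 4.25% at 16000 ppm. The Cr(VI) group and both captan groups overlapped control, with 5, 6 and 5 of 7 libraries above its highest for Cr(VI), captan 6000 ppm and captan 12000 ppm. The rise was 1.57 ± 0.21 on the log2 scale (SE) with folpet at 16000 ppm, a fold change of 2.97 (adjusted p = 4.59e-07). In the other groups it was 0.83 ± 0.20 with Cr(VI) (adjusted p = 0.00672), 0.81 ± 0.20 and 0.89 ± 0.20 with captan at 6000 and 12000 ppm (adjusted p = 0.00936 and 0.00366) and 0.80 ± 0.20 with folpet at 6000 ppm (adjusted p = 0.00761). By median, folpet 16000 ppm came first, then Cr(VI), captan 6000 ppm, captan 12000 ppm and folpet 6000 ppm, and control last, and the 4 groups in the middle overlapped one another.

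Tpi1 encodes triosephosphate isomerase. Its leading probe ran from 3945 to 4751 CPM in Cr(VI) libraries (median 4465), from 3794 to 6527 with captan at 6000 ppm (median 5063) and from 4062 to 5943 at 12000 ppm (median 4948). Folpet libraries ran from 4756 to 5890 CPM at 6000 ppm (median 5010) and from 5197 to 7315 at 16000 ppm (median 6426), against 2567, 2997, 3958, 4441 and 1645 CPM in the control libraries. Both folpet groups lay wholly above control, as 2.99% of tested probes did at 6000 ppm and 4.25% at 16000 ppm. In the other groups, 5 of 7 Cr(VI), 6 of 7 captan 6000 ppm and 4 of 7 captan 12000 ppm libraries lay above the highest control. Control also had the widest relative spread, with a coefficient of variation of 35.6% against 6.59% to 16.6% in the exposed groups. Tpi1 rose by 0.73 ± 0.16 on the log2 scale with captan at 6000 ppm (SE, adjusted p = 0.00335), by 0.66 ± 0.16 at 12000 ppm (adjusted p = 0.00724), by 0.72 ± 0.16 with folpet at 6000 ppm (adjusted p = 0.00278) and by 0.99 ± 0.16 at 16000 ppm (adjusted p = 1.59e-05). With Cr(VI) the log2 fold change was 0.50 ± 0.16 and just missed the threshold (adjusted p = 0.053, all 7 libraries above the control mean). That value passed with DESeq2 (adjusted p = 0.00417), limma-voom (0.0285), RLE size factors (0.0269), no low-count filter (0.0492) and the acinar share as a covariate (0.0489). It did not pass without the libraries above 50% acinar counts (log2 fold change 0.48, adjusted p = 0.167), with only the 2 compared groups (0.54, adjusted p = 0.297) or with library totals (0.16, adjusted p = 0.895). It passed in 16 of 40 fits without a single library, among them that without control replicate 4 (log2 fold change 0.66). Without control replicate 5, which was shallow and had 67.6% acinar counts, the value was 0.34. Over the 40 fits the adjusted p was at most 0.184.

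Pgam1 encodes phosphoglycerate mutase 1, which moves the phosphate of 3-phosphoglycerate. Folpet libraries at 16000 ppm ran from 41.9 to 95.3 CPM (median 78.0) and 5 of 7 lay above the highest control. The other exposed groups had medians of 41.3 CPM (Cr(VI)), 48.2 and 57.7 CPM (captan 6000 and 12000 ppm) and 43.9 CPM (folpet 6000 ppm), against 57.8, 42.5, 43.4, 47.0 and 45.0 CPM in the control libraries. The log2 fold change at folpet 16000 ppm was 0.64 ± 0.32 and did not pass (adjusted p = 0.204), and in the other groups it lay between -0.12 and 0.21.

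**Figure D2:**
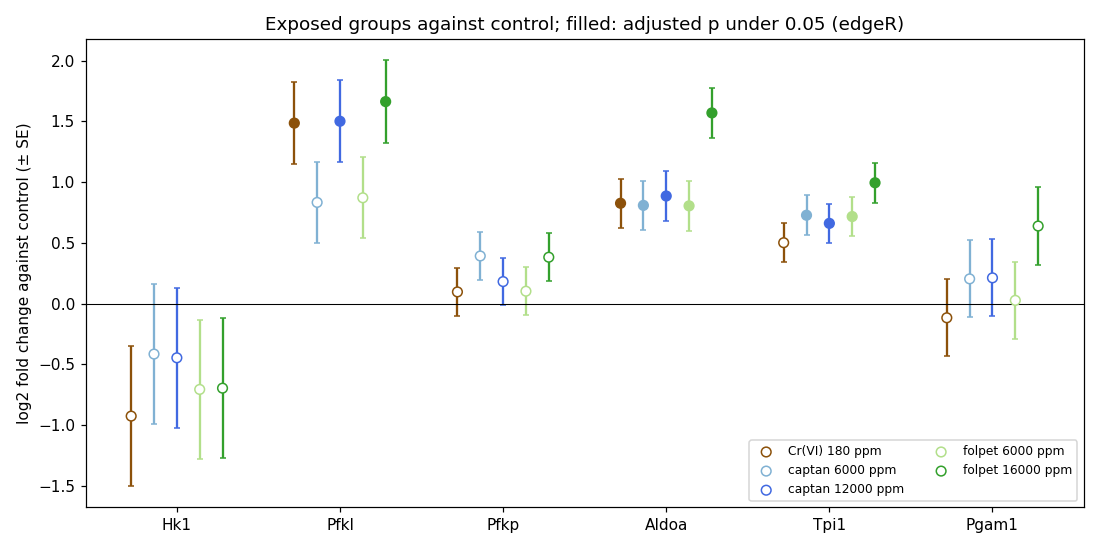
Log2 fold change against control (vertical axis, bars ± SE) of the 6 tested probes in the 5 exposed groups; filled points passed at an adjusted p under 0.05 in edgeR. Filled points occur at Pfkl, Aldoa and Tpi1 and reach 1.66 for Pfkl and 1.57 for Aldoa with folpet at 16000 ppm, and all Hk1 points are open and below 0.

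Some enterocyte markers were called higher too. The marker lists were chosen with earlier results of these data known, so their counts are descriptions and no measure of cell composition. At 6000 ppm of either fungicide the 2 calls were Klf4 and Apoa1. Of 5 measured, 3 were called higher with Cr(VI), 2 and 4 with captan at 6000 and 12000 ppm, and 2 and 4 with folpet at 6000 and 16000 ppm. The shares of all tested probes called higher were 2.95%, 3.78%, 4.64%, 4.6% and 7.91% in that order. Klf4, a transcription factor of differentiated epithelium, and Apoa1, an apolipoprotein, rose in all 5 groups, Klf4 by 1.32 to 1.53 and Apoa1 by 0.73 to 1.13 on the log2 scale. Of the fatty acid binding proteins, Fabp1 rose with Cr(VI), captan at 12000 ppm and folpet at 16000 ppm and Fabp2 in those fungicide groups, and the adhesion gene Cdh1 passed in none. The summed level of the 5 markers was 1.87% to 11.2% of counts with Cr(VI), 6.31% to 11.2% and 4.90% to 13.8% with captan at 6000 and 12000 ppm, 4.33% to 12.5% and 5.99% to 8.82% with folpet at 6000 and 16000 ppm, and 0.925% to 7.37% in control. Its medians in that order were 5.21%, 7.81%, 10.3%, 8.38%, 7.68% and 5.75%, so the Cr(VI) median lay below control. A larger acinar share leaves a smaller share of counts for these markers. In the opposite direction, 1, 2, 2, 2 and 3 of 6 smooth muscle markers were called lower, in the same order of groups. The shares of all tested probes called lower were 2.99%, 1.38%, 1.53%, 1.61% and 4.68%. The part of these shifts in the enzyme results was not tested. In such bulk tissue, fewer cells of a type and less RNA per cell cannot be told apart.

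No acinar marker passed in any of the 5 comparisons, although the medians of the acinar share were 46.0% of counts with Cr(VI), 21.6% and 0.700% with captan at 6000 and 12000 ppm, 12.8% and 21.8% with folpet at 6000 and 16000 ppm, and 33.4% in control. The 12 member calls against control were kept with the acinar share as a covariate. They were also kept in the 35 libraries left after those above 50% were taken out, where Aldoa reached 1.79 and Pfkl 1.92 with folpet at 16000 ppm. Each call was kept when any single library of the 40 was left out. Most did not hold in 2 other fits: only Pfkl with captan at 12000 ppm and Pfkl, Aldoa and Tpi1 with folpet at 16000 ppm passed when each exposed group was fitted with control alone. Scaling by raw totals, under which the median log2 fold change of all tested probes reached 0.44, left Pfkl and Aldoa with captan at 12000 ppm and with folpet at 16000 ppm.

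**Figure D3:**
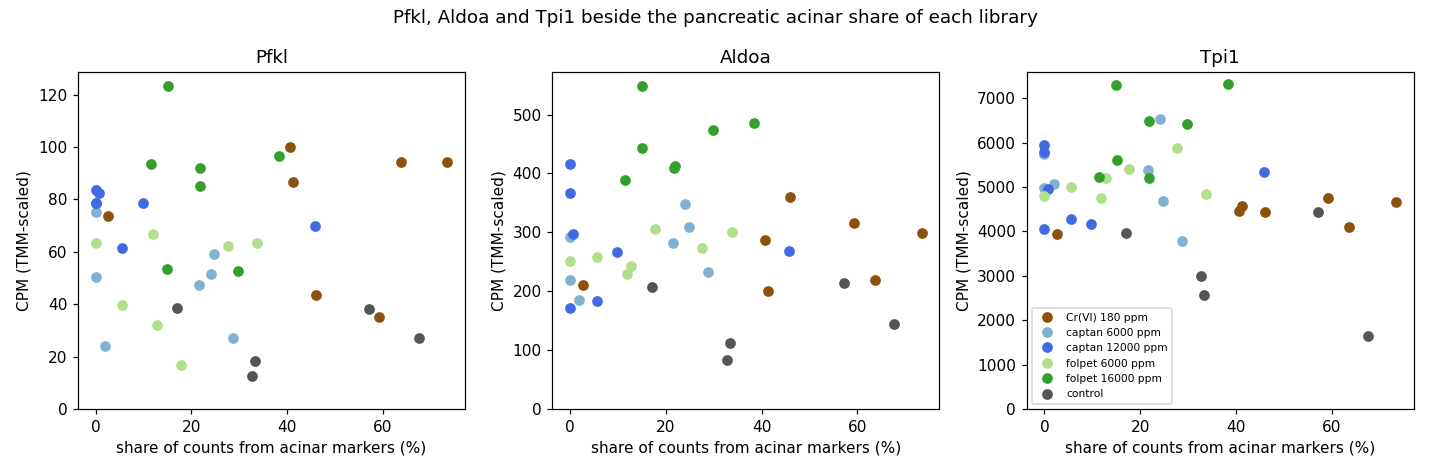
CPM of Pfkl, Aldoa and Tpi1 (vertical axes from 0) against the share of each library's counts from 15 pancreatic acinar markers in percent (horizontal axis); points are libraries, coloured by group. The folpet 16000 ppm libraries, at 11.5% to 38.4% acinar counts, lie above control libraries with shares from 17.0% to 67.6% in all 3 panels. In that group 4.25% of all tested probes lay wholly above control.

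The dose steps asked whether more of a fungicide gave more of an enzyme transcript. For folpet, Aldoa was higher at 16000 ppm than at 6000 ppm, at 452 ± 55.4 CPM against 266 ± 29.2 CPM (SD, n = 7 each), and the groups did not overlap. The difference was 0.76 ± 0.18 on the log2 scale (adjusted p = 0.0146). It was the 1 call among 6 members, where 0.59% of all tested probes were called higher and 1.14% lower, and 0.59% lay wholly above the 6000 ppm group. It was kept when any single library was left out, with an adjusted p of at most 0.0483, and was lost when libraries were scaled by totals alone (0.49, adjusted p = 0.791). Pfkl had 85.2 ± 25.0 CPM at 16000 ppm and 49.2 ± 19.6 CPM at 6000 ppm, a difference of 0.79 ± 0.29 that did not pass (adjusted p = 0.218). For Tpi1 the difference was 0.28 ± 0.15 (adjusted p = 0.531) and for Pgam1 0.61 ± 0.29 (adjusted p = 0.402).

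For captan, none of the 6 members passed between 12000 and 6000 ppm, and neither did any of the 2541 tested probes (0%). At an unadjusted p under 0.05 the number was 148, and DESeq2 and limma-voom also called 0. Pfkl had 76.1 ± 7.93 CPM at 12000 ppm and 47.8 ± 17.8 CPM at 6000 ppm (SD, n = 7 each). All 7 libraries at 12000 ppm lay above the 6000 ppm mean, yet the difference of 0.67 ± 0.29 did not pass (adjusted p = 0.727). Its 95% interval, 0.08 to 1.26, excluded 0 but is not adjusted for the number of probes tested. Aldoa differed by 0.08 (95% interval -0.29 to 0.44) and Tpi1 by -0.07 (-0.36 to 0.23). The Aldoa step of 0.76 seen with folpet lies outside the captan interval, but its own interval, 0.40 to 1.13, overlaps that of captan. The doses are not matched between the fungicides, and the difference between the dose steps was not tested.

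Both fungicides carry a trichloromethylthio group bound to the nitrogen of an imide. In folpet the imide is fused to an aromatic ring, and in captan to a ring with a single double bond. They were compared at the shared dose of 6000 ppm, the 1 matched pair, with p-values adjusted over all tested probes. None of the 6 members passed, where 0% of tested probes were called higher and 0.157% lower with captan. Aldoa had 267 ± 56.9 CPM with captan and 266 ± 29.2 CPM with folpet, a log2 difference of 0.00 with a 95% interval from -0.36 to 0.37. The interval was -0.28 to 0.30 for Tpi1, -0.63 to 0.55 for Pfkl, -0.07 to 0.65 for Pfkp, -0.40 to 0.75 for Pgam1 and -0.77 to 1.35 for Hk1. These intervals do not show that the compounds act alike, and differences inside them remain possible with 7 libraries a group. They give the uncertainty of each estimate and set no limit of detection. At the higher doses, which differ, Aldoa had 282 ± 89.3 CPM with captan at 12000 ppm and 452 ± 55.4 CPM with folpet at 16000 ppm.

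**Figure D4:**
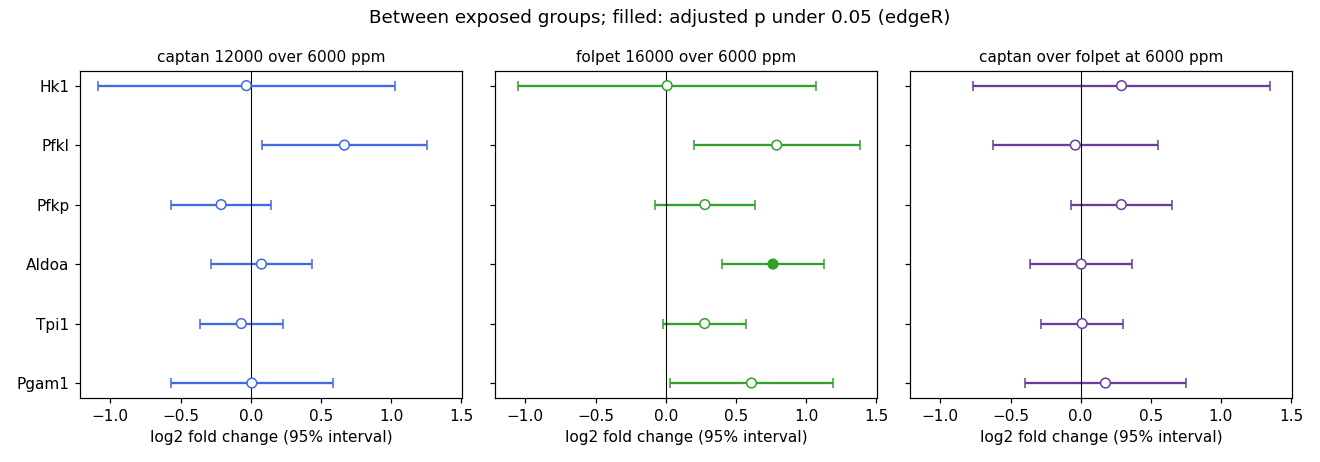
Log2 fold change (horizontal axis, bars are 95% intervals) of the 6 tested probes for captan 12000 over 6000 ppm, folpet 16000 over 6000 ppm and captan over folpet at 6000 ppm; the filled point passed at an adjusted p under 0.05 in edgeR. The filled point is Aldoa in the folpet step at 0.76, and the intervals of captan against folpet all include 0.

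Neighbouring genes of sugar metabolism were counted by list. Of 20 other glycolytic isozymes and regulators looked for, 7 were in the panel with 8 probes, and none passed with Cr(VI), with captan at 6000 ppm or with folpet at 6000 ppm. With captan at 12000 ppm 2 of 8 probes rose, Gapdh, the triose phosphate dehydrogenase, by 0.62 ± 0.18 (adjusted p = 0.0298) and Bpgm, bisphosphoglycerate mutase, by 0.48 ± 0.15 (adjusted p = 0.0462). With folpet at 16000 ppm 1 rose, Gapdh, by 0.71 ± 0.18 (adjusted p = 0.00638). Of all tested probes, 4.64% were called higher with captan at 12000 ppm and 7.91% with folpet at 16000 ppm. Pkm, the muscle-type pyruvate kinase, had 0 counts in 3 of 5 control libraries and at most 19.6 CPM in any library, so no fold is given. Aldoc and Pgam2 were also at 0 in most control libraries, so no median over the list is given.

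Gapdh in folpet 16000 ppm libraries ran from 1215 to 2238 CPM, against 1013, 1163, 1188, 499 and 1110 CPM in the control libraries, of which replicate 4 was the low one. All folpet 16000 ppm libraries lay above control, which was so for 4.25% of all tested probes. Some of these list calls were lost in settings that kept every call of Aldoa, Tpi1 and Pfkl, though most of the latter were lost in other settings. Gapdh with folpet at 16000 ppm was kept without any single library (edgeR adjusted p at most 0.0371). The calls of Gapdh, Bpgm and Slc16a3 with captan at 12000 ppm were lost with the acinar share as a covariate (adjusted p = 0.463, 0.229 and 0.137). Without the libraries above 50% acinar counts those 3 were lost too (adjusted p from 0.145 to 0.292), as were Gapdh and Slc16a3 with folpet at 16000 ppm (0.0502 and 0.111). The captan 12000 ppm calls of Gapdh and Bpgm were also lost with RLE size factors (0.0548 and 0.0729). When single libraries were left out, Gapdh with captan at 12000 ppm was lost without control replicate 4 or captan 12000 ppm replicate 3. Bpgm was lost in 15 of 40 such fits.

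Among 4 transport probes, of 9 genes looked for, the lactate exporter Slc16a3 rose by 1.05 ± 0.28 with captan at 12000 ppm (adjusted p = 0.0147) and by 0.98 ± 0.28 with folpet at 16000 ppm (adjusted p = 0.0135). Without control replicate 4 these became 0.89 and 0.82, with adjusted p of 0.0562 and 0.0512. In those groups 4.64% and 7.91% of all tested probes were called higher. The glucose transporter Slc2a2 did not pass in any group. Neither of 2 probes of pyruvate's further use, Mpc2 of the mitochondrial pyruvate carrier and Pdha1 of pyruvate dehydrogenase, passed. Of 2 gluconeogenic probes, G6pc, glucose 6-phosphatase, was lower with folpet at 16000 ppm (adjusted p = 0.0415), where 4.68% of tested probes were called lower. It ran from 0 to 12.4 CPM in that group, against 96.5, 33.2, 70.8, 36.2 and 0 CPM in the control libraries, and the call was lost in 8 of 40 fits that left out a single library.

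In the pentose phosphate pathway, which branches off at glucose 6-phosphate, 1 of 3 probes passed, in the fungicide groups. There, 3.78% to 7.91% of all tested probes were called higher. Taldo1, transaldolase, rose by 1.06 ± 0.18 and 0.90 ± 0.18 on the log2 scale with captan at 6000 and 12000 ppm, and by 1.32 ± 0.18 and 1.58 ± 0.18 with folpet at 6000 and 16000 ppm (the highest adjusted p was 0.000693). With Cr(VI) its log2 fold change was 0.44 ± 0.18 (adjusted p = 0.133). Taldo1 ran from 2568 to 3216 CPM with folpet at 16000 ppm, against 1145, 998, 841, 1363 and 684 CPM in the control libraries. G6pdx, the first enzyme of the branch, and Rpia did not pass.

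Of 12 probes for 11 hypoxia genes outside glycolysis, 2 were called higher in each exposed group, Bnip3, a mitophagy receptor, and Car9, a carbonic anhydrase. The share of all tested probes called higher ran from 2.95% with Cr(VI) to 7.91% with folpet at 16000 ppm. Bnip3 rose by 2.10 with Cr(VI), 1.55 and 1.94 with captan at 6000 and 12000 ppm, and 2.16 and 2.47 with folpet at 6000 and 16000 ppm on the log2 scale, with 1 of 5 control libraries at 0. Leaving out control replicate 4 raised these values to 2.78, 2.24, 2.62, 2.84 and 3.16 in the same order. Without control replicate 5 they fell to 1.82, 1.28, 1.66, 1.88 and 2.20. The Bnip3 calls were kept without any single library, with an edgeR adjusted p of at most 0.0385, for captan at 6000 ppm. Car9 rose by 1.13, 0.82, 0.85, 1.07 and 1.02 in those groups. The Car9 calls with captan were lost with the acinar share as a covariate (adjusted p = 0.262 and 0.286), with limma-voom (0.0717 and 0.082) and without the libraries above 50% acinar counts (0.205 and 0.149), and so was that with folpet at 6000 ppm in the last setting (0.0548). Without single libraries Car9 was lost in 5 of 40 fits with captan at 6000 ppm and in 1 at 12000 ppm. Bnip3 with captan at 6000 ppm was lost with limma-voom (adjusted p = 0.0927). Hif1a itself and both Vegfa probes did not pass against control.

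**Figure D5:**
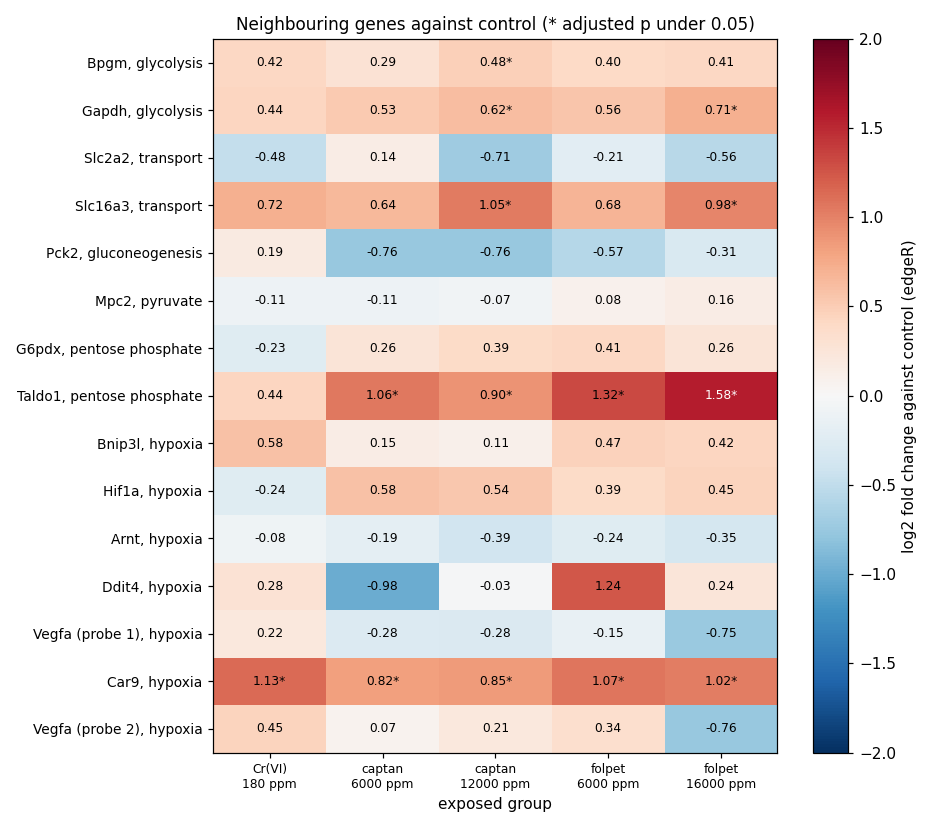
Log2 fold change against control (colour and number) of the 15 probes of neighbouring pathways that were above 0 in every library, in the 5 exposed groups; asterisks mark an adjusted p under 0.05 in edgeR. Taldo1 reaches 1.58 with folpet at 16000 ppm and Car9 is marked in all 5 columns. The only glycolysis rows shown, Gapdh and Bpgm, are positive throughout, between 0.29 and 0.71. The other probes of that list were at 0 in some library and are left out.

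Likeness to other genes was measured as the Pearson correlation of log2 CPM over all 40 libraries, which share groups and scaling, so the values are descriptions. Within the family, Aldoa and Tpi1 were most alike (0.78, and 0.51 after group means were removed). Pfkl was less like Aldoa (0.58, and 0.23 with group means removed) and Tpi1 (0.45, and 0.09). The 4 probes most like Aldoa were Sod1 (0.84), Abcf1 (0.83), Aldh3a2 (0.82) and Ndufb6 (0.81). Those most like Tpi1 were Atp6v1d (0.90), Pfn1 (0.88), Ugdh (0.86) and Aldh2 (0.86). For Pfkl they were Acaa1b (0.67), Capg (0.66), Oxct1 (0.62) and Ptger4 (0.61). The median over all tested probes was 0.05 for Aldoa, 0.11 for Tpi1 and 0.04 for Pfkl.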

How the data were processed

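The authors deposited whole-number counts per probe for 40 libraries, with no normalization that the values show. Per the submitters' processing notes, bcl2fastq 2.17.1.14, Bowtie and the build mm9 were used, with no roles stated. Probe sequences and positions were not used here. Genes with processed pseudogenes or near-identical copies are therefore uncertain as single genes. PCR counts without molecular identifiers are not independent molecules.

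Counts were analysed with edgeR 4.0.16 in R 4.3.3. filterByExpr (minimum count 10, minimum total 15) left 2541 probes. With TMM scaling, a robust quasi-likelihood model with a mean for each of 6 groups was fitted to all 40 libraries (34 residual degrees of freedom). Tests are 2-sided, and p-values were adjusted by Benjamini-Hochberg over all tested probes in each of 8 comparisons. SEs were approximated from each fold change and its F statistic, and log2 CPM has a prior count of 2. Scripts were tested on simulated data.

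Samples were grouped by the labelled exposure; replicate numbers only name libraries, and no pair of libraries was identical. Alternatives were DESeq2 1.42.0, limma-voom (limma 3.58.1), RLE size factors, library totals, no filter, fits of 2 groups, the acinar share as a covariate, removal of libraries above 50% acinar counts, and removal of each library. Genes named outside the members are those of the lists that passed against control, the best known of each list, and the 4 probes most like each called member. Members and lists were chosen with earlier results of these data known. Markers of stroma, immune cells, proliferation and skeletal muscle were also counted: at most 2 of 6, 1 of 4, 2 of 9 and 1 of 5 tested probes were called lower against control and none higher. Of all tested probes, 1.38% to 4.68% were called lower against control and 2.95% to 7.91% higher, depending on the group. Neither of 2 tested red cell markers passed. Some results for the lists are not reported here.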

Additional observations from a re-analysis of the deposited data

Results flagged for a closer look

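Outliers were sought on log2 CPM in 36 sets of libraries, 6 probes in 6 groups, and 2 were marked, where chance marks about 1 in 20. The Hk1 probe had 0 CPM in Cr(VI) replicate 6, where the next lowest Cr(VI) library had 8.41 CPM. The Pfkp probe had 120.0 CPM in Cr(VI) replicate 3, the library with the highest acinar share, 73.4% of counts, where the next lowest had 178 CPM.

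The Aldoa effect of folpet differed between doses, being 0.76 higher on the log2 scale at 16000 ppm than at 6000 ppm (edgeR adjusted p = 0.0146).

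The second Tpi1 probe, which was not tested, had 15 counts in folpet 16000 ppm replicate 6 and 0 in every other library, control included.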

How the results depend on the processing

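Of 48 member values, 6 probes in 8 comparisons, none changed direction among those called. The 13 member calls were all kept with DESeq2, RLE size factors, no low-count filter, the acinar covariate, without libraries above 50% acinar counts and in each of the 40 fits without a library. With limma-voom 1 was lost, with library totals 9 and with only the 2 compared groups 8; the cause was not tested. Library totals left 0 member calls with Cr(VI), captan 6000 ppm, folpet 6000 ppm and the folpet step. Fits of 2 groups left 0 with Cr(VI), captan 6000 ppm and folpet 6000 ppm and 1 with captan 12000 ppm. Without single libraries the Cr(VI) member count ran from 2 to 3.

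Counts over all probes, listed for Cr(VI), captan 6000, captan 12000, folpet 6000 and folpet 16000 ppm against control, were 151, 131, 157, 158 and 320. They were 14, 32, 79, 51 and 57 with library totals and 28, 29, 29, 77 and 205 in fits of 2 groups. DESeq2 gave 240, 213 and 261 in the first 3, the acinar covariate 74, 88 and 102 in captan 6000, captan 12000 and folpet 6000 ppm, and leaving out the libraries above 50% acinar counts 49, 61, 96 and 102 in the first 4. The folpet step had 44 calls, and 86 with DESeq2, 9 with library totals, 113 in a fit of 2 groups and 69 without the libraries above 50%. Captan against folpet at 6000 ppm had 4, and 13 with DESeq2 and with limma-voom, 1 with library totals, 10 in a fit of 2 groups and 10 without those libraries. Without single libraries the counts ran from 115 to 159, 93 to 161, 104 to 200, 122 to 174 and 262 to 338 against control. The captan step ran from 0 to 1, the folpet step from 25 to 59, and captan against folpet from 3 to 10. The lowest captan 12000 ppm count was without its replicate 3, the lowest folpet step without folpet 6000 ppm replicate 2, and the highest captan against folpet count without control replicate 5.

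Calls split into higher and lower as 96 and 35 with captan 6000 ppm and 201 and 119 with folpet 16000 ppm, and with RLE size factors as 85 and 54 and as 167 and 151. With library totals, higher and lower calls were 3 and 11, 32 and 0, 75 and 4, 50 and 1, and 42 and 15 in the 5 groups, where that scaling moved the median of all probes to -0.30, 0.33, 0.44, 0.28 and -0.05. No paired analysis was possible because the labels carry no replicate numbers. Of all deposited values, 1 per probe and library, 28.5% were 0. Hk1 was at 0 in 1 library and had 27 to 302 counts in the others; how far depth sets its spread was not tested.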
